A study of Mesocricetus auratus with 38 samples.

Results

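Deubiquitinases, the proteases that take ubiquitin off other proteins, were described in hamster liver through 53 gene symbols of the 14631 in the deposited tables. The symbols were chosen by name alone, as those that start with Usp and a digit, Otub or Otud, Uch or Uchl and a digit, or Josd. They comprised 40 ubiquitin-specific proteases (USP), 9 ovarian tumour domain proteases (OTU), 2 ubiquitin C-terminal hydrolases (UCH) and 2 Josephin proteases. One symbol, Usp6nl, matches the name rule only: it encodes a GTPase-activating protein for Rab proteins, not a protease, and it is kept in the counts. Several well-known deubiquitinases, Usp2, Usp7, Usp18, Otub1 and Uchl3 among them, were not analysed here.

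Ubiquitin is joined to proteins by a chain of activating, conjugating and ligating enzymes, and it marks them for the proteasome, for sorting in endosomes or for signalling. Deubiquitinases reverse the mark: some free ubiquitin for reuse at the proteasome, some edit histones, and others rescue single substrates from breakdown. USP, OTU, UCH and Josephin enzymes are cysteine proteases with different folds, and in liver they are known to act on enzymes of sterol synthesis, on receptors and on mitochondria.

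Liver RNA of male Golden Syrian hamsters aged 22 weeks was sequenced in 38 libraries, and each library was treated as a single animal because no animal is named in the labels. For 12 weeks the 9 control animals had a normal diet, in which fat supplied 11% of the calories, and the 10 animals of the high-fat diet group (HFD) had a diet in which fat supplied 23% and cholesterol was present at 1 g/kg. Dose I (9 libraries, HFD + MI_D1 in the labels) and Dose II (10 libraries, HFD + MI_D2) had the high-fat diet throughout, with combined metabolic activators (CMA) added during the final 4 weeks. CMA held L-carnitine, N-acetylcysteine and nicotinamide riboside at 200 mg/kg each with 400 mg/kg betaine in Dose I, and at 400 mg/kg each with 800 mg/kg betaine in Dose II. Betaine was given in the drinking water and the others in diluted condensed milk. The HFD group received a placebo, and all animals were fasted for 6 h before the livers were taken.

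The letters C, H, DI and DII stand for the groups in library names, followed by the library's label number. The libraries held 4075610 to 10384500 estimated counts, of which the deubiquitinases made up 0.0919% to 0.162%. Control C105 stood apart from the other controls, so values over the other 37 libraries come first, and counts of calls over all 38 follow them. In C105, 30 of the 43 deubiquitinases that passed the filter on low counts lay below all of the other 8 controls (69.8%, against 35.04% of all tested genes), and 5 lay above them (11.6%, against 31.9%). Usp33 was at 5.24 CPM (counts scaled to library size) in C105 and at 30.0 to 44.2 CPM in the other controls. Hepatocyte markers dominated every library, with 8 markers summing to 91524 TPM or more, and no other cell type's markers were at 0 across a group.

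Most deubiquitinases were expressed at low to moderate levels. In TPM, which also divides by transcript length, 13 of the 43 tested members had a mean of 10 or more over 37 libraries, 23 lay between 1 and 10, and 7 lay under 1. Usp20, which in mouse liver is known to protect HMG-CoA reductase from degradation after feeding, was the most abundant at 53.4 TPM (range 29.8 to 74.8) and made up 13.9% of the summed deubiquitinase TPM. It was followed by Usp4 (27.3 TPM), known to act on splicing factors, Usp47 (24.8 TPM), linked to base excision repair, Usp5 (23.6 TPM), which takes apart free ubiquitin chains, and Usp16 (19.3 TPM), a histone H2A deubiquitinase. The ranges of Usp4, Usp47 and Usp5 over libraries overlapped one another. Their order is that of the means, and it was not compared within libraries.

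**Figure D1:**
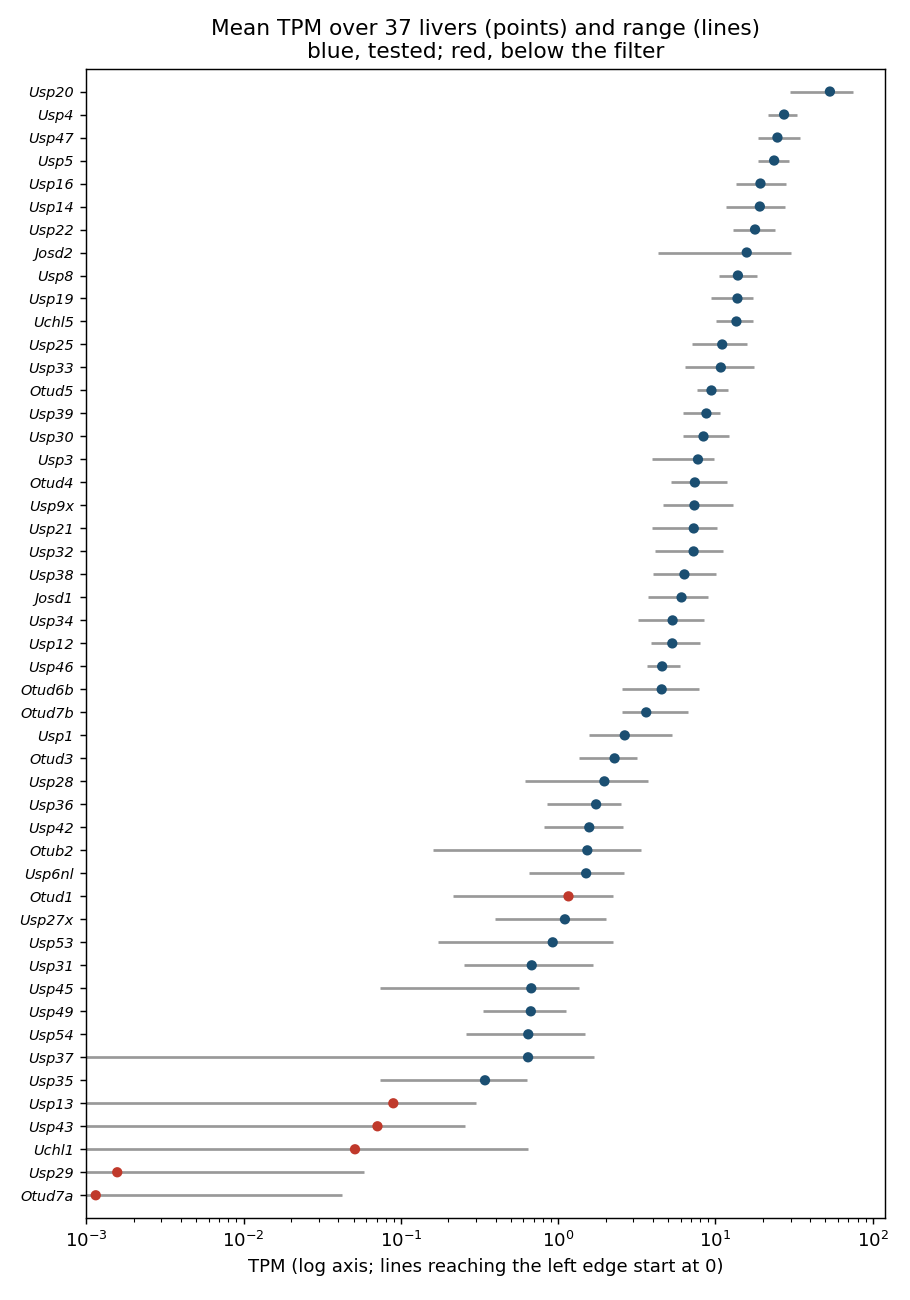
Mean level of each detected deubiquitinase symbol in TPM (log axis) over 37 livers, with the lowest and highest library as a line; blue points passed the filter on low counts and red points did not. Usp20 stands highest at 53.4 TPM, and the members below the filter lie at the bottom, apart from Otud1 at 1.16 TPM.

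The filter removed 10 symbols: Otud1, Usp13, Usp43, Uchl1, Usp29, Otud7a, Otud6a, Usp26, Usp44 and Usp50. The last 4 had no count in any of the 38 libraries, where a count of 0 allows up to 3 counts per library, or 0.289 to 0.736 CPM, and this limit covers counting error only. Uchl1, the neuronal ubiquitin hydrolase, had a mean of 0.051 TPM, against 13.6 TPM for Uchl5, the hydrolase bound to the proteasome. No statement on a change was made for the members below the filter.

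The spread between animals of a group differed widely among members. The median within-group SD was 0.246 on the log2 CPM scale, lowest in Usp4 (0.118), and among the highest in Usp45 (0.620), Usp37 (0.583) and Josd2 (0.532). Usp45 and Usp37 rested on means of only 11.1 and 10.9 counts per library, whereas Josd2 had a mean of 89.7 counts. Usp9x has a Y-linked copy in mammals and Usp27x is related in sequence to Usp22, and how the quantification split reads between such copies was not tested.

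The comparison of the HFD group with the control group asks how the deubiquitinases differed after the diet alone. Of the 43 tested members, 2 rose and 18 fell in the HFD livers at an adjusted p under 0.1 (edgeR quasi-likelihood test, Benjamini-Hochberg adjustment over all 9099 tested genes), and 23 did not pass. Over all tested genes, 18.1% rose and 18.1% fell in that comparison. The median log2 fold change of the members was -0.23, against 0.01 over all tested genes, and 34 members had a negative and 9 a positive log2 fold change. Bulk liver RNA does not tell fewer cells of a type from less RNA per cell.

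Usp9x, a large deubiquitinase linked to cell polarity, receptor trafficking and TGF-beta signalling, had the smallest adjusted p. It stood at 73.3, 94.3 and 108.3 CPM (lowest, median and highest) in the 8 controls and at 43.5, 57.4 and 67.9 CPM in the 10 HFD livers. It was the only member whose groups did not overlap, which 0.758% of tested genes did in this direction, although C105, at 35.9 CPM, lay below every HFD liver. Usp9x was 0.62 times its control level (log2 fold change -0.69, SE 0.10, adjusted p = 5.5e-06).

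Usp20 moved the other way. It stood at 143, 170 and 215 CPM in the controls and at 185, 265 and 334 CPM in the HFD livers. All but 1 of the HFD livers, H111, lay above every one of the 8 controls, and C105 was at 232 CPM. The level in HFD was 1.501 times that of control (log2 fold change 0.59, SE 0.12, adjusted p = 3.9e-04).

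Among deubiquitinases of endosomes, membranes, mitochondria and the cytoskeleton, 1 of 12 tested rose (Usp20) and 4 fell, beside 18.1% of all tested genes in each direction. With C105 kept, Usp20, Usp9x and Usp8 kept their calls, and Usp33 and Usp32 lost theirs. Usp8, which spares receptors from lysosomal sorting, stood at 63.6, 75.1 and 77.5 CPM in the controls and at 50.6, 58.6 and 67.4 CPM in HFD, with 8 of the 10 HFD livers below all 8 controls (log2 fold change -0.31, SE 0.07, adjusted p = 0.00144). Usp33, the close relative of Usp20 that shares several of its receptor substrates, fell as well (log2 fold change -0.36, SE 0.11, adjusted p = 0.0171), with 6 of 10 HFD livers below the controls. Usp30, the enzyme of the outer mitochondrial membrane that opposes mitophagy, was at 0.02 on the log2 scale (SE 0.09, adjusted p = 0.903), at 23.1 to 37.6 CPM in the controls and 22.5 to 36.4 CPM in HFD. The remaining called member was Usp32 (-0.46, adjusted p = 0.0177).

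Among deubiquitinases linked to immune and NF-kB signalling, 4 of 8 tested fell and none rose, beside 18.1% of all tested genes in each direction. With C105 kept, Usp31 and Usp38 kept their calls, and Usp25 and Otud4 lost theirs. Usp31, described as an inhibitor of NF-kB signalling, had the largest decrease among all members but a low level, at 2.44, 4.13 and 6.29 CPM in the controls and 0.977, 2.11 and 3.17 CPM in HFD. The groups overlapped, with 7 of 10 HFD livers below every control (log2 fold change -1.14, SE 0.23, adjusted p = 4.1e-04). Usp38 (-0.41, adjusted p = 0.00437) and Usp25 (-0.41, adjusted p = 0.00805), both tied to antiviral and TRAF signalling, fell by similar amounts, and 9 of 10 HFD livers had less Usp25 than any of the 8 controls. Otud4, an enzyme linked to innate immune adaptors and DNA repair, stood at 63.5, 68.01 and 89.1 CPM in the controls and 47.2, 59.5 and 69.1 CPM in HFD (log2 fold change -0.30, SE 0.08, adjusted p = 0.00507).

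Among deubiquitinases of chromatin, DNA repair and the cell cycle, 5 of 12 tested fell and none rose, beside 18.1% of all tested genes in each direction. With C105 kept, Usp1 and Usp37 kept their calls, and Usp22, Usp47 and Usp42 lost theirs. Usp1, which removes ubiquitin from the Fanconi anaemia protein FANCD2 and from PCNA, stood at 8.70, 13.9 and 20.1 CPM in the controls and 6.55, 9.15 and 12.4 CPM in HFD, with overlapping groups (log2 fold change -0.62, SE 0.15, adjusted p = 0.00194). Usp22, the histone deubiquitinase of the SAGA coactivator complex, fell by less (-0.27, SE 0.08, adjusted p = 0.0130). Usp47, Usp37 and Usp42 also fell, with log2 fold changes of -0.23, -0.87 and -0.44, and Usp37 rested on few counts. Usp16, the histone H2A enzyme, was at -0.16 (adjusted p = 0.127).

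Of the 3 tested enzymes tied most closely to the proteasome and to ubiquitin recycling, 1 fell and none rose. Over all tested genes the share was 18.1% in each direction. Usp14, which trims chains at the proteasome, stood at 30.2, 39 and 47.6 CPM in the controls and 29.4, 32.8 and 42.9 CPM in HFD, overlapping ranges, and was called (log2 fold change -0.23, SE 0.10, adjusted p = 0.0647). That call was lost with C105 kept (adjusted p = 0.287) and in 8 of 18 fits that left out 1 library. Uchl5 was at -0.09 (SE 0.09, adjusted p = 0.485) and Usp5 at -0.13 (SE 0.09, adjusted p = 0.273). Of the splicing-linked members, Usp4 was at -0.08 (SE 0.06, adjusted p = 0.394) and Usp39, a spliceosome protein that lacks the catalytic residues, at 0.08 (SE 0.09, adjusted p = 0.520).

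Otud6b, Usp34 and Usp45 were the tested members outside these groups, and all 3 fell, beside 18.1% of all tested genes. With C105 kept, only Otud6b of these kept its call. Otud6b, known from human genetics and linked to proteasome assembly, stood at 7.33, 11.6 and 13.5 CPM in the controls and 4.70, 7.66 and 10.6 CPM in HFD, with 4 of 10 HFD livers below every control (log2 fold change -0.64, SE 0.14, adjusted p = 7.3e-04). Usp34, which acts on axin in Wnt signalling, stood at 54.7, 65.5 and 86.0 CPM in the controls and 44, 53.8 and 64.2 CPM in HFD, with 6 of 10 HFD livers below every control (-0.36, SE 0.10, adjusted p = 0.00620).

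The Josephin proteases moved apart. Josd2 stood at 3.87, 8.74 and 12 CPM in the controls and 7.84, 14.8 and 26.7 CPM in HFD, where 7 of 10 livers were above every control (log2 fold change 0.83, SE 0.24, adjusted p = 0.0106). Josd1, a membrane-linked relative, fell by 0.28 on the log2 scale and was the called member nearest the threshold (adjusted p = 0.0838), and the call was lost in 8 of 18 fits that left out 1 library. On the other side of the threshold the nearest member was Usp19 (-0.16, adjusted p = 0.110), and Usp6nl was at -0.39 (adjusted p = 0.113). Another 10 tested members, Otud7b, Usp3, Usp12, Usp21, Usp28, Usp36, Usp46, Usp49, Usp53 and Usp54, lay between -0.56 (Usp53, adjusted p = 0.129) and 0.27 (Usp21, adjusted p = 0.128) without a call.

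**Figure D2:**
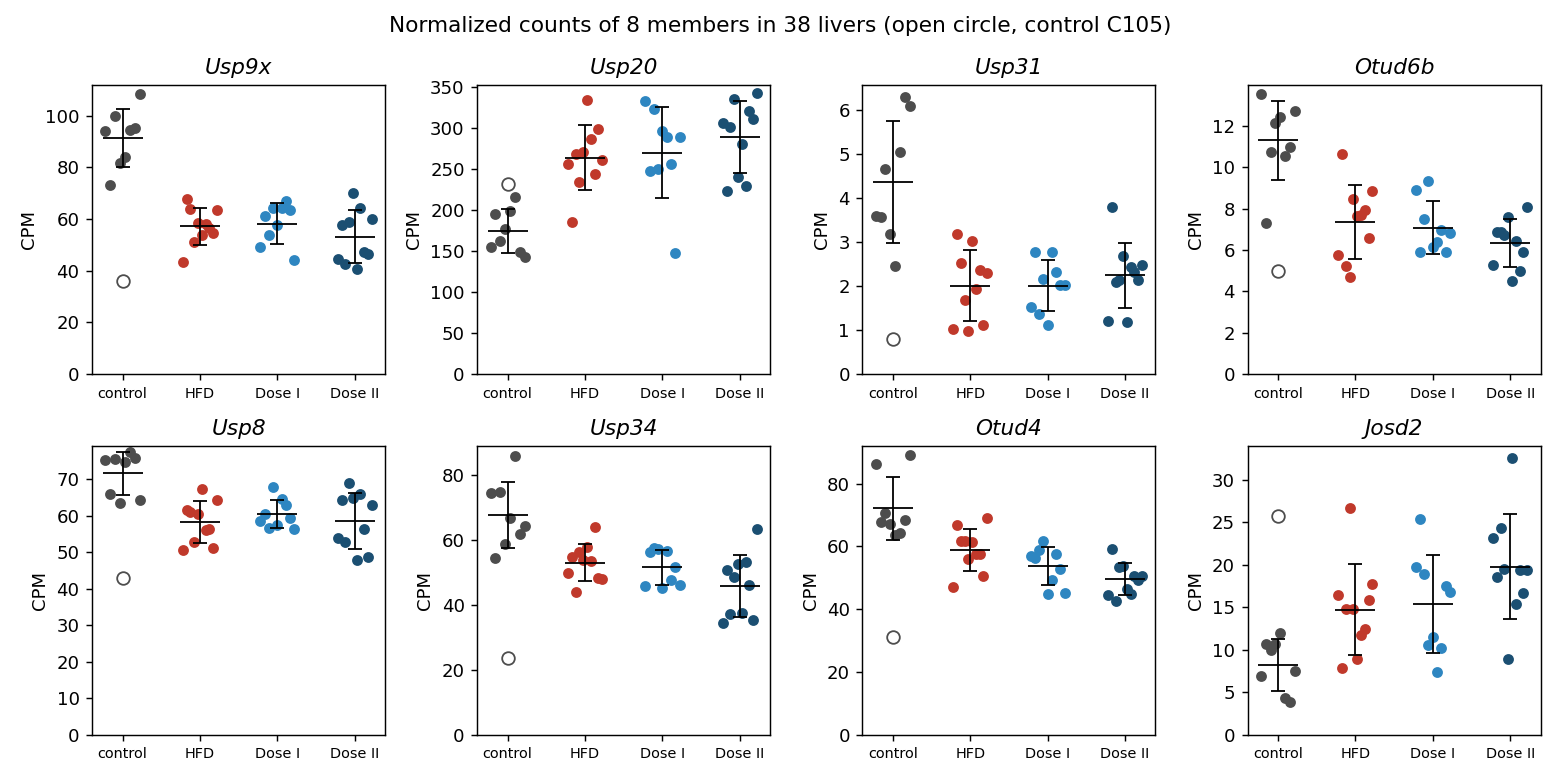
Normalized counts (CPM) of 8 deubiquitinases in the 4 groups, 1 point per liver, with the mean and SD over 37 libraries as lines and control C105 as an open circle. All 10 HFD livers lie at or under 67.9 CPM of Usp9x and all 8 closed controls at or above 73.3 CPM, while C105 lies at 35.9 CPM.

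With control C105 kept, 1 of the 43 members rose (Usp20) and 7 fell (Usp9x, Usp31, Otud6b, Usp1, Usp38, Usp8 and Usp37), against 6.63% and 8.94% of all tested genes. All 8 calls were also calls over 37 libraries. Usp9x then had a log2 fold change of -0.59 (adjusted p = 0.00218) and Usp20 of 0.53 (adjusted p = 0.00339), while Josd2 dropped to 0.55 (adjusted p = 0.186), and C105 held 25.7 CPM of Josd2. Usp34 was at -0.26 (adjusted p = 0.209) and Usp33 at -0.22 (adjusted p = 0.451).

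Markers of some cell types differed with the diet, to be read against 18.1% of all tested genes in each direction. With C105 kept these shares were 6.63% up and 8.94% down. Of 9 tested macrophage and Kupffer cell markers, 6 rose and none fell, and their summed level was 128.1 to 188 TPM in the controls and 185 to 306 TPM in HFD. With C105 kept, whose macrophage sum was 267 TPM, only 2 of the 9 rose. Of 8 hepatocyte markers 1 rose and 5 fell (0 and 3 with C105 kept), with sums of 134664 to 158482 TPM in the controls and 100333 to 133734 TPM in HFD. Of the other types, 2 of 6 sinusoidal endothelial and 1 of 4 bile duct cell markers rose and none fell. No call was made among 5 stellate cell markers and 1 lymphocyte marker. With C105 kept no marker of these 4 types was called. The part of any of these shifts in the deubiquitinase changes was not tested.

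Transcript length was followed because the members are long. The relative length of a gene was its estimated counts divided by its TPM, scaled within each library so that a typical expressed gene is near 1. The median was 1.54 for the tested members and 0.990 for all tested genes. Usp34 (4.49), Usp9x (3.86), Otud4 (3.48) and Otud3 (2.84) were the longest tested members, and Josd2 (0.430), Usp27x (0.573), Uchl5 (0.586) and Otub2 (0.598) were the shortest.

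Libraries differed in how far long genes were counted above or below their mean. The trend was measured in each library as Spearman's rho, across the 9099 tested genes, between the log2 deviation from the mean of all libraries and log2 relative length. It ran from 0.105 to 0.335 in the 8 controls (mean 0.203) and from -0.217 to 0.15 in HFD (mean -0.012), a difference of -0.215 (two-sided exact permutation test over libraries, p = 1.37e-04, adjusted p = 5.48e-04 over 4 comparisons). C105, set against the mean of the other 37 libraries, was at -0.355, opposite in sign to the other controls and lower than any other library. With C105 kept the difference was -0.143 (exact permutation p = 0.0654). Dose I differed from HFD by -0.049 (exact permutation p = 0.391) and Dose II from HFD by -0.109 (permutation test with 100000 resamples, p = 0.0494, adjusted p = 0.0988). With C105 kept the latter was -0.112 (permutation test, p = 0.0488, adjusted p = 0.131).

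The log2 fold changes of HFD vs. control followed length over all tested genes (Spearman's rho -0.26 across 9099 genes), and less so over the 43 members (rho -0.09), both given as descriptions across genes, which are not independent replicates. With the members split by their own lengths into short, middle and long ones, 6 of 15, 5 of 14 and 7 of 14 fell. Of all tested genes cut at the same lengths, 1.33 and 1.92, 14.2%, 21.9% and 29.4% fell. The outer ranges were open, so the short one took in every gene shorter than the shortest member. These shares are therefore not closely matched for length. With C105 kept, 2, 3 and 2 of these members fell, against 7.37%, 11.1% and 12.8% of all tested genes. The 2 members that rose stood at opposite ends, Josd2 as the shortest and Usp20 among the long ones.

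**Figure D3:**
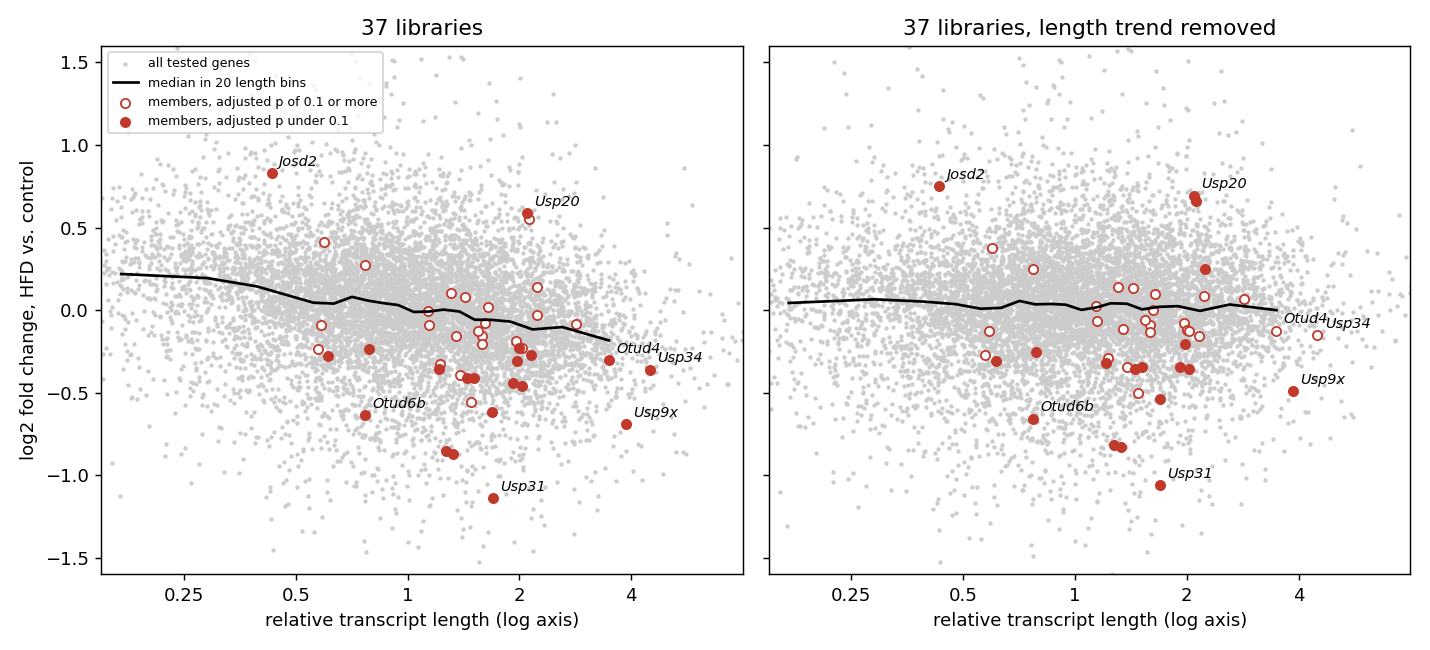
Log2 fold change of HFD vs. control against relative transcript length (log axis) for all tested genes in grey, with 208 and 205 of 9099 genes outside the axes in the left and right panels, and the members in red. On the left the median over length bins slopes down; on the right, with each library's length trend removed, it lies near 0, and Usp9x and Usp31 remain low while Usp34 and Otud4 are no longer filled.

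With each library's length trend removed, 4 members rose and 14 fell, against 17.3% and 15.1% of all tested genes. All 14 were among the 18 above, and Otud4, Usp34, Usp22 and Usp47 were the 4 that lost their call, with log2 fold changes of -0.12, -0.15, -0.15 and -0.12. Usp9x kept a log2 fold change of -0.49 (adjusted p = 8.9e-05), and Usp20 was at 0.69 (adjusted p = 1.4e-04). The added rises were Otud5 (0.25, adjusted p = 0.0163), which acts on TRAF3 in interferon signalling, and Usp35 (0.66, adjusted p = 0.0829), a low-level member at 0.342 TPM. With C105 kept as well, 1 member rose (Usp20) and 5 fell (Usp9x, Usp31, Otud6b, Usp1 and Usp38), against 8.75% and 7.46% of all tested genes.

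**Figure D4:**
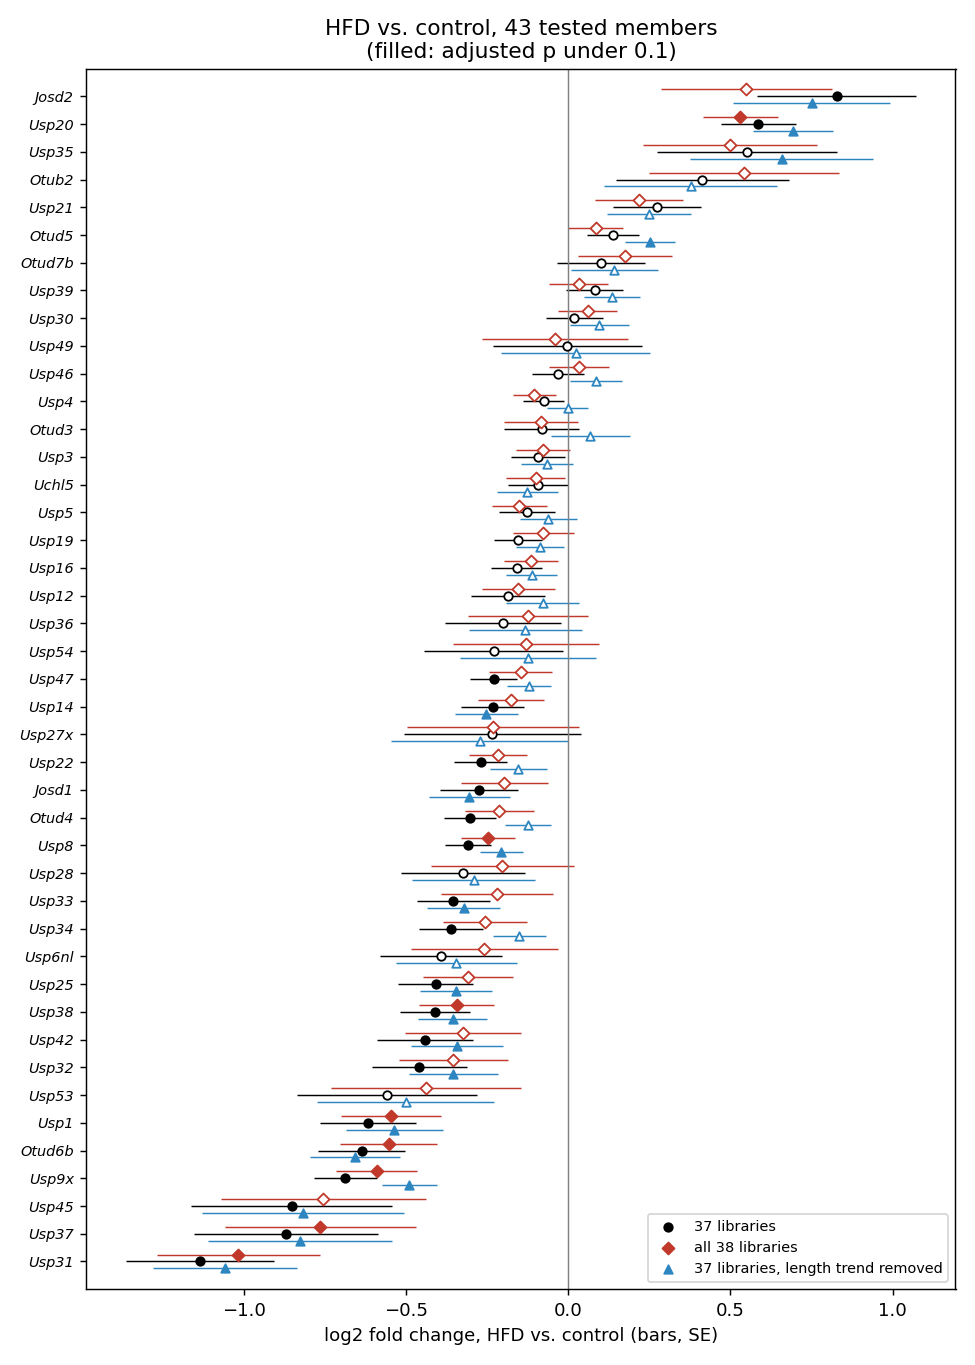
Log2 fold change of HFD vs. control with its SE for the 43 tested members, ordered by the fit over 37 libraries (black), beside all 38 libraries (red) and 37 libraries with the length trend removed (blue); filled symbols have an adjusted p under 0.1. Usp20, Usp31, Usp9x, Otud6b, Usp1, Usp38, Usp8 and Usp37 are filled in all 3.

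The comparison of each CMA dose with HFD asks whether the supplement changed the deubiquitinases on the same diet. In Dose I vs. HFD none of the 43 members passed the edgeR test, where 0.187% of all tested genes did. One member, Otud3, had an unadjusted p under 0.05 (log2 fold change -0.26, SE 0.11, adjusted p = 0.480), and DESeq2 called 0 of the 24 members to which it gave an adjusted p, against 1.61% of all genes with one. Log2 fold changes lay between -0.38 and 0.34, with SEs of 0.06 to 0.32 (median 0.11), and 38 of 43 were smaller than 0.25 in size. Usp9x, at 44, 61.2 and 67 CPM in Dose I, was at 0.03 (SE 0.10), and Usp20, at 148, 289 and 333 CPM, at 0.04 (SE 0.11), both overlapping HFD.

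In Dose II vs. HFD 1 member passed, Otud4, where 2.25% of all tested genes fell and 3.37% rose. Otud4 stood at 42.6, 50.01 and 59.3 CPM in Dose II against 47.2, 59.5 and 69.1 CPM in HFD, with 4 of 10 Dose II livers below every HFD liver (log2 fold change -0.24, SE 0.08, adjusted p = 0.0863). The call was lost with C105 kept (adjusted p = 0.284), with the length trend removed (adjusted p = 0.190), and in 11 of 20 fits without 1 library. C105 is in neither of these groups, and it enters only through the filter, scaling and spread that the 4 groups share. With it kept, 97 of 9045 tested genes fell. An edgeR fit of Dose II and HFD alone again called 1 member as fallen (adjusted p = 0.0757). Usp34 (-0.20, SE 0.09) and Josd2 (0.44, SE 0.21) had an unadjusted p under 0.05 with adjusted p of 0.255 and 0.257. Usp20 stood at 223, 303 and 342 CPM in Dose II and was at 0.15 (SE 0.11, adjusted p = 0.502).

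Several enzymes with a known place in recycling, chromatin or mitochondria differed little from HFD in either dose group. Usp14 was at -0.13 in Dose I and -0.05 in Dose II, Usp22 at 0.09 and -0.02, Usp30 at 0.03 and 0.10, Usp5 at 0.03 and 0.01, Uchl5 at 0.06 and 0.08 and Usp39 at -0.03 and -0.02 on the log2 scale, with SEs of 0.07 to 0.09 and none past the threshold. Usp6nl was at -0.04 and -0.20, and Usp37, a cell cycle enzyme of few counts, at -0.38 and -0.38 without a call. Dose II vs. Dose I gave 0 calls among the members, by edgeR and by DESeq2, with 0 at an unadjusted p under 0.05 by edgeR, and 0 over all tested genes.

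Some cell markers differed in the Dose II comparison too. Against HFD, 5 of 9 macrophage markers fell, beside 2.25% of all tested genes, with a sum of 128.6 to 230 TPM in Dose II. With C105 kept 1 of 9 fell, beside 97 of 9045 tested genes. Of 8 hepatocyte markers 2, Cps1 and Ass1, rose with or without C105, beside 3.37% of all tested genes over 37 libraries. None fell, and the median log2 fold change of the 8 was 0.03. Cps1 and Ass1 are urea cycle enzymes, and the paper reported higher expression of both with CMA. The deubiquitinases linked to immune signalling had a median log2 fold change of -0.11 in Dose II vs. HFD. Of these, 1 of 8, Otud4, was called as fallen, beside 2.25% of all tested genes. Whether the macrophage shift had a part in it was not tested.

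Set against the control group, which these comparisons share with HFD vs. control, 3 members rose and 22 fell in Dose I (20.6% and 20.1% of all tested genes), and 4 rose and 24 fell in Dose II (23.9% and 23.4%). With C105 kept, 1 rose and 10 fell in Dose I (10.4% and 11.4% of all tested genes), and 2 rose and 16 fell in Dose II (15.6% and 17.3%). With the length trend removed over 37 libraries, 3 rose and 12 fell in Dose I (19.6% and 16.7%), and 5 rose and 21 fell in Dose II (22.2% and 21%). Usp9x was at -0.66 in Dose I and -0.78 in Dose II, beside -0.69 in HFD. Usp20 was at 0.62 and 0.73, beside 0.59, and Josd2 at 0.89 and 1.27, beside 0.83. Otud4 was at -0.43 and -0.54, beside -0.30. Otud4 and Usp9x in Dose I, and Otud4, Usp9x and Usp42 in Dose II, lay below all 8 controls in every liver, which 1.8% and 2.73% of tested genes did. Usp20 lay above them in every Dose II liver (2.17% of tested genes). C105 went against all of these: it was below every Dose I and Dose II liver in Otud4, Usp9x and Usp42, and its Usp20 lay within the range of Dose II.

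**Figure D5:**
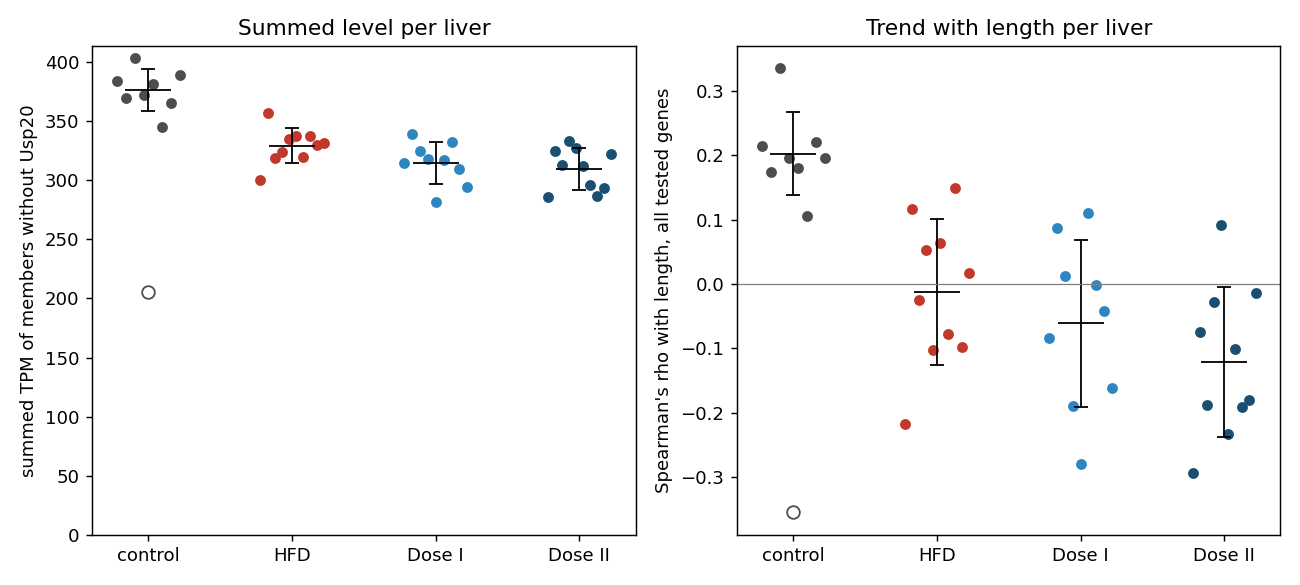
Summed TPM of the deubiquitinases without Usp20 (left) and each library's Spearman's rho between deviation and transcript length over all tested genes (right), 1 point per liver, with mean and SD lines and C105 as an open circle. The sums fall from a mean of 376 TPM in the controls to 309 TPM in Dose II, and the length trend from 0.203 to -0.121.

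The summed TPM of all members was 415 ± 15.8 in control (SD, n = 8), 386 ± 16.5 in HFD (n = 10), 371 ± 22.1 in Dose I (n = 9) and 369 ± 21.0 in Dose II (n = 10). Without Usp20 the sums were 376 ± 17.5, 329 ± 14.9, 315 ± 18.0 and 309 ± 17.7 TPM. The lowest control, at 345 TPM, lay below the highest HFD liver, at 357 TPM, and above every Dose I and Dose II liver. C105 held 242 TPM in all and 205 TPM without Usp20, lower than any other library. As a share of estimated counts, without division by length, all members had means of 0.149%, 0.147%, 0.143% and 0.143% in the same order. Those ranges overlapped. The TPM sums are a description, and they move with the most abundant members.

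The rest of the ubiquitin pathway was counted in lists of its genes, to be read against the 18.1% of all tested genes that rose and the 18.1% that fell. In HFD vs. control, of 18 tested deubiquitinases with other names none rose and 4 fell: Mindy2 (-0.50), Zranb1 (-0.46), Otulin (-0.41) and Vcpip1 (-0.34), of which Otulin removes linear ubiquitin chains. Of 25 conjugating enzymes (E2) 4 rose and 5 fell, and of 8 activating enzymes (E1) 1 rose and 2 fell, among them Uba1 (-0.17, adjusted p = 0.0853), the main ubiquitin-activating enzyme. Of 16 partner proteins of deubiquitinases 1 rose, Babam1 (0.35), and 4 fell, among them Stam2 (-0.29), the endosomal partner of Usp8. With C105 kept, no gene of these 4 lists rose, and 1 other deubiquitinase, 1 E2, 1 E1 and 0 partners fell. In that fit 6.63% of all tested genes rose and 8.94% fell.

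Proteases for SUMO and other ubiquitin-like proteins gave 1 rise and 2 decreases of 10 tested, with Senp6, which trims SUMO chains, at -0.35 (adjusted p = 0.00644). The system of ISG15, an interferon-induced ubiquitin-like protein, gave 3 rises and 2 decreases of 9 tested. The decreases were Trim25 (-0.65, adjusted p = 0.00646), with the smallest adjusted p, and Stat2 (-0.35, adjusted p = 0.0387). Irf7 (0.70, adjusted p = 0.0195) was among the rises. With C105 kept these counts were 1 and 1 for the SUMO protease list and 1 and 0 for the ISG15 list. They stand beside 6.63% and 8.94% of all tested genes. Of 9 clock genes 1 fell, Clock itself (-1.14, adjusted p = 0.00120). Neither dose gave a call against HFD in the E1, E2, deubiquitinase, partner, SUMO protease or ISG15 lists, and 1 clock gene, Tef, rose in Dose II (0.77, adjusted p = 0.0571).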

How the data were processed

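Liver RNA-seq of 38 samples was grouped by the GEO labels. The authors ran kallisto against the hamster build MesAur1.0, and they deposited raw estimated counts per gene symbol together with TPM. The deposited tables give no transcript lengths, so relative length was computed as estimated counts divided by TPM.

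Estimated counts (12.6% of values not whole, tolerance 1e-06) were rounded and filtered by filterByExpr. After TMM scaling, edgeR 4.0.16 in R 4.3.3 was used (quasi-likelihood F test, 4 groups in 1 fit, Benjamini-Hochberg over all tested genes, called at an adjusted p under 0.1). SEs were derived from the log2 fold change and the F value (absolute value over root F). CPM are TMM-normalized. C105 was left out of the main fit because the study left out 1 control after a principal component analysis and this column stood apart. The length trend was a lowess (span 0.3) of each library's log2 deviation on log2 length, removed as an offset. No pair of libraries agreed within sampling noise.

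Members, lists, roles and tests were chosen with earlier results of these data known, and named genes were the called members with the smallest adjusted p, a set of known enzymes, the most and least abundant, the longest and shortest, and those nearest the threshold. Usp2, Usp7, Usp18, Otub1 and Uchl3, which the rule also names, were not analysed here. Of the 53 symbols, 52 matched a RefSeq symbol. No sequence or coordinate is given, since a genome of the build was not held. Alternatives were DESeq2 1.42.0, limma 3.58.1 on log2(TPM + 1) and log2(TPM + 0.1), RLE, other filters (none, or at least 10 counts in every library), fits of 2 groups, an effective-length offset, a stricter threshold (0.05) and omission of each library. Comparisons of doses with control, and list and length-range counts over all 38 libraries, were added after seeing the data. The test was tried on simulated data with known changes. Replicates are separate samples, and p-values measure the spread between them.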

Additional observations from a re-analysis of the deposited data

Results flagged for a closer look

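In 16 checks of single members or their sum in a group, 15.2% of those made, 1 library lay far from the others by Dixon's criterion. Chance flags about 1 in 20 groups, and checks of genes in the same library are not independent.

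Control C105 accounted for 12 of these. It was the lowest control in Josd1 (4.45 CPM, next 7.92), Otud4 (31.2, next 63.5), Usp25 (16.8, next 39), Usp32 (13.6, next 33.2), Usp33 (5.24, next 30.0), Usp34 (23.6, next 54.7), Usp42 (1.83, next 7.46), Usp47 (61.3, next 107.7), Usp8 (42.96, next 63.6) and Usp9x (35.9, next 73.3), all in CPM. It was the highest control in Josd2 (25.7 CPM, next 12) and the lowest in the summed TPM of the members (241.7, next 391.1).

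The other 4 were single livers of the fed or treated groups. H113 held 26.7 CPM of Josd2 (next 17.7), DI127 held 147.5 CPM of Usp20 (next 247.0), DII130 held 3.10 CPM of Usp37 (next 1.58) and DII138 held 3.87 CPM of Usp45 (next 2.06). No cause was tested for any of them.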

How the results depend on the processing

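In HFD vs. control, 2 members rose and 18 fell over 37 libraries. With all 38 libraries 1 rose and 7 fell, with all 38 and the length trend removed 1 rose and 5 fell, and with the length trend removed 4 rose. Leaving out 1 library gave 2 to 4 rises and 16 to 20 decreases; the 4 rises came without C102 or without H115. Calls of Usp9x, Usp20, Usp31, Otud6b, Usp1 and Usp38 held in every alternative that tested them and in every fit without 1 library. In Dose II vs. HFD the 1 call became 0 with all 38 libraries, with or without the length trend removed, with the length trend removed alone, with no filter and at a threshold of 0.05, became 2 (Otud4 and Usp4) in limma on log2(TPM + 1) and log2(TPM + 0.1), and was 0 to 1 without 1 library. It was lost without H111, H112, H114, H117, H119, DII129, DII131, DII134, DII135, DII136 or DII137. Against control, rises and decreases went from 3 and 22 to 1 and 10 in Dose I and from 4 and 24 to 2 and 16 in Dose II with all 38 libraries, and to 3 and 12 and to 5 and 21 with the length trend removed.

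The length trend of HFD vs. control weakened to -0.143 (exact permutation p = 0.0654) with all 38 libraries. With at least 10 counts in every library, that of Dose II vs. HFD was -0.123 (permutation test, p = 0.0525, adjusted p = 0.105). With all 38 libraries it was -0.112 (permutation test, p = 0.0488, adjusted p = 0.131). In HFD vs. control 4 members changed sign in at least 1 fit, none of them called: Otud3, Usp30, Usp46 and Usp49. Usp46 was at 0.033, 0.122 and 0.086 with all 38 libraries, with the length trend removed as well and with it removed alone. Usp49 lay between 0.001 and 0.104 in the 10 fits where its sign changed, and at -0.003 in the main fit. Otud3 was at 0.067 with the length trend removed and at 0.012 with all 38 libraries as well. Usp30 was at -0.042 with the effective-length offset, at -0.066 and -0.072 in limma with the larger and the smaller pseudocount, and ranged from -0.022 to 0.076 without 1 library. The next totals cover all named members in HFD vs. control. They also cover Otud4, Usp34 and Josd2 in Dose II vs. HFD and Otud3 in Dose I vs. HFD. Of these values, 332 kept their direction and side of the threshold, 37 lost and 4 gained a call, and 5 changed sign. Without 1 library these were 597, 27, 9 and 4. The causes were not tested, and depth limits the members near 10 counts, Usp37 and Usp45 among them. No paired analysis was possible because the replicate numbers run over all groups and none is shared. The planned correlation of Usp2 with clock genes was not run, since Usp2 was not analysed here.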
